A study of Mus musculus with 4 samples.

Results

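The collagen genes of the mouse liver were described across 5 classes of nuclei: stellate, endothelial, mesothelial, cholangiocyte and hepatocyte. All genes whose symbol had the form Col, a number, a and a number were taken, which gave 44 of the 32285 mouse genes in the deposited count tables. Of these, 33 had at least 20 unique molecular identifiers (UMIs, each marking 1 captured RNA molecule) summed over the 5 classes, and 11 had between 1 and 19. The threshold fell between Col28a1, with 28 UMIs, and Col26a1 and Col19a1, with 16 and 15.

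The data were single-nucleus RNA-seq of livers from male Bl/6 mice that entered the study at 6 to 8 weeks of age. Mice ate either a chow diet (CD) or a low-protein diet (LPD) for 1 week before a tail-vein injection and for 2 weeks after it. The injected plasmids carried human c-MET and β-catenin on Sleeping Beauty, a transposon system that inserts its cargo into the DNA of hepatocytes reached by the injection, and control mice received vector. There was 1 library in each of the 4 groups, labelled control or oncogene on each diet. Values below are listed as CD control, CD oncogene, LPD control, then LPD oncogene. All mice were thus injected.

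The libraries held 9825 to 12552 nuclei after filtering. Median depths of 3807 and 3294 UMIs per nucleus on CD exceeded those of 1962 and 1762 on LPD, so that depth and diet cannot be told apart. UMIs of the human transgenes numbered 100, 0, 0 and 6, which goes against the labels of the CD pair, and both are therefore named by label only. The paper gives more nuclei for its CD vector sample than for its CD oncogene sample. Here the order by label was the reverse, with 10397 nuclei in CD control and 12552 in CD oncogene. On LPD the order was the same as in the paper. Whether the CD labels were exchanged was not tested. Any pair of libraries shared 16 to 35 cell barcodes.

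Collagens are triple-helical proteins of the extracellular matrix. Fibrillar collagens build the cables of connective tissue, fibril-associated collagens sit on those cables, and type IV collagens form the mesh of basement membranes. In liver, stellate cells store vitamin A at rest and are the best known source of scar collagen in fibrosis, while the sinusoidal endothelium lacks a continuous basement membrane.

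Nuclei were assigned to a class by 8 marker genes per class, none of them a collagen gene. This gave 1012 stellate, 2913 endothelial, 125 mesothelial, 270 cholangiocyte and 28118 hepatocyte nuclei, with 22 to 43 mesothelial and 38 to 118 cholangiocyte nuclei per library. Since the same markers set the classes, their order across classes is in part fixed by the rule. All stellate and endothelial markers were highest in their own class in the 4 libraries. Exceptions were the mesothelial marker Lrrn4 (3 libraries), the cholangiocyte marker Krt7 (1 library), and Alb (3), Trf (3), Ttr (3) and Apoa1 (2) among the hepatocyte markers. Only 1 nucleus met the rule for portal fibroblasts or smooth muscle, so those matrix-producing cells were not measured as a class here. When nuclei were clustered instead, the stellate clusters had 4, 3, 2 and 3 of the 8 markers of those cells raised. The part of such cells in the stellate class was not tested.

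RNA of hepatocytes was found in every class. The median level of the 8 hepatocyte markers, as a percentage of the level in hepatocyte nuclei, was 49.4 to 58.5% in stellate, 55.3 to 75.4% in endothelial and 41.3 to 79.4% in lymphocyte nuclei. Levels of collagen genes were therefore set beside those in 1577 lymphocyte nuclei, a cell type that should make little or no collagen. Mesothelial nuclei held the stellate marker list at 193 to 305 CPM (UMIs scaled to the usual common total of a class and library), against 5826 to 8584 CPM in stellate nuclei. They also held the cholangiocyte list at 1465 to 1915 CPM, against 4724 to 8081 CPM in cholangiocyte nuclei. In mesothelial nuclei 3, 3, 6 and 5 of the 8 cholangiocyte markers had no UMI, so that sum came from only part of the list. The part of these RNAs in the values below was not tested.

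Of the 33 genes, 15 were higher in 1 class than in each of the other 4, by edgeR's quasi-likelihood test on UMI sums per library and class, with Benjamini-Hochberg adjusted p below 0.05 in each contrast. There were 8 such genes in stellate nuclei, where 3.02% of all 17437 genes tested met the same rule. There were 3 in hepatocyte nuclei (7.03% of all genes), 3 in mesothelial nuclei (1.54%), 1 in endothelial nuclei (2.84%) and 0 in cholangiocyte nuclei (1.04%). The largest share of collagen genes called thus lay in the stellate class. The 4 sums of a class came from 4 libraries under different conditions, so the spread in these tests holds diet and injection as well as animals.

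By family, 4 of 9 fibrillar genes, 1 of 5 fibril-associated genes, 5 of 6 type IV genes, 1 of 4 beaded-filament (type VI) genes and 1 of 3 membrane-spanning genes were called highest in a class. Both multiplexins, the basement membrane collagens that end in antiangiogenic fragments, were called, as was 1 of 2 network-forming short-chain genes. The shares of all genes called were 3.02% in stellate, 2.84% in endothelial, 1.54% in mesothelial, 1.04% in cholangiocyte and 7.03% in hepatocyte nuclei. Whether a family differed from these shares was not tested. Summed over all 44 genes, stellate nuclei held 4540, 4606, 3669 and 3552 CPM. Mesothelial nuclei held 2950, 2486, 3112 and 2960 CPM, and the other 3 classes 820 to 1365 CPM. Stellate nuclei had the highest sum in all 4 libraries.

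**Figure D1:**
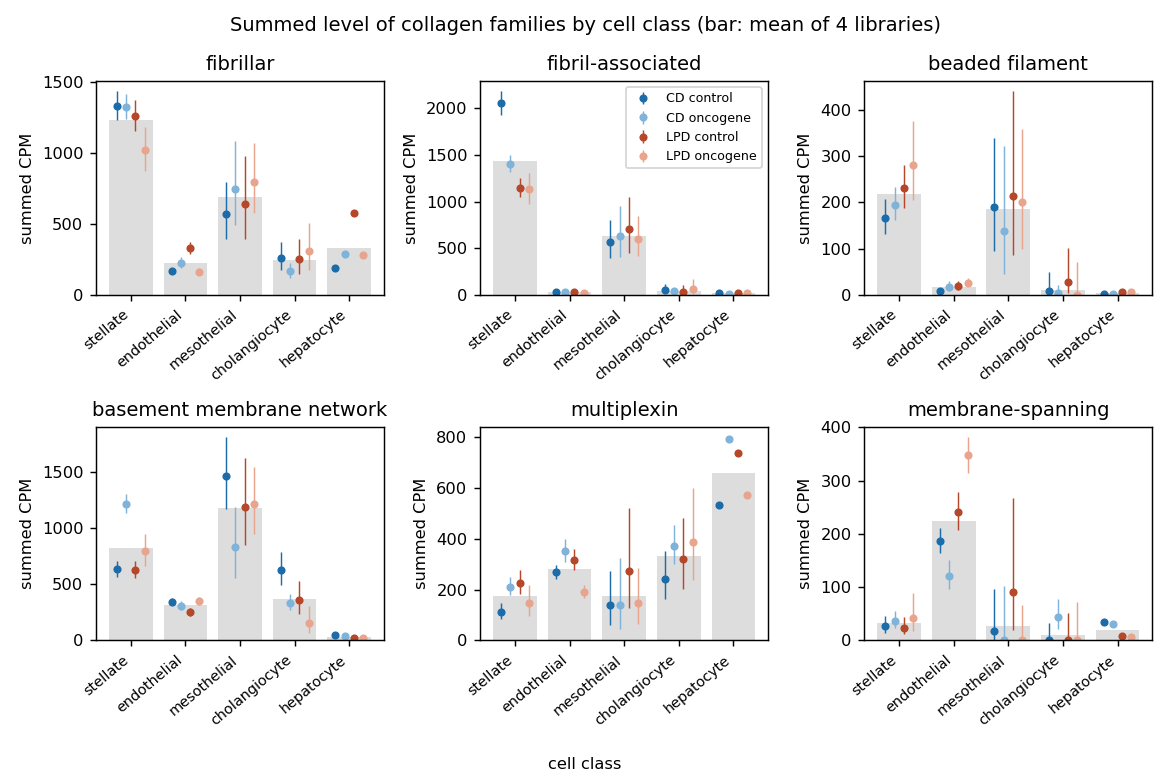
Summed level of 6 collagen families, in CPM, in each of the 5 classes of nuclei; bars are means of the 4 libraries, points are single libraries and their lines are 95% Poisson intervals. Fibrillar and fibril-associated sums were highest in stellate nuclei, membrane-spanning sums in endothelial nuclei and multiplexin sums in hepatocyte nuclei, in all 4 libraries.

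The families differed in where they were highest. Fibrillar sums in stellate nuclei were 1331, 1325, 1261 and 1021 CPM, and fibril-associated sums were 2055, 1407, 1149 and 1137 CPM. The type IV sum was highest in mesothelial nuclei in 3 libraries, at 1467, 1190 and 1217 CPM, but in the library labelled CD oncogene stellate nuclei held more, 1214 against 829 CPM. Membrane-spanning sums were 121 to 348 CPM in endothelial nuclei, and multiplexin sums 532 to 794 CPM in hepatocyte nuclei. Most of the fibril-associated sum in stellate nuclei was Col14a1. Col13a1 made most of the membrane-spanning sum in endothelial nuclei, and Col18a1 most of the multiplexin sum in hepatocyte nuclei. These sums thus describe mainly those genes, whose values are given below.

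**Figure D2:**
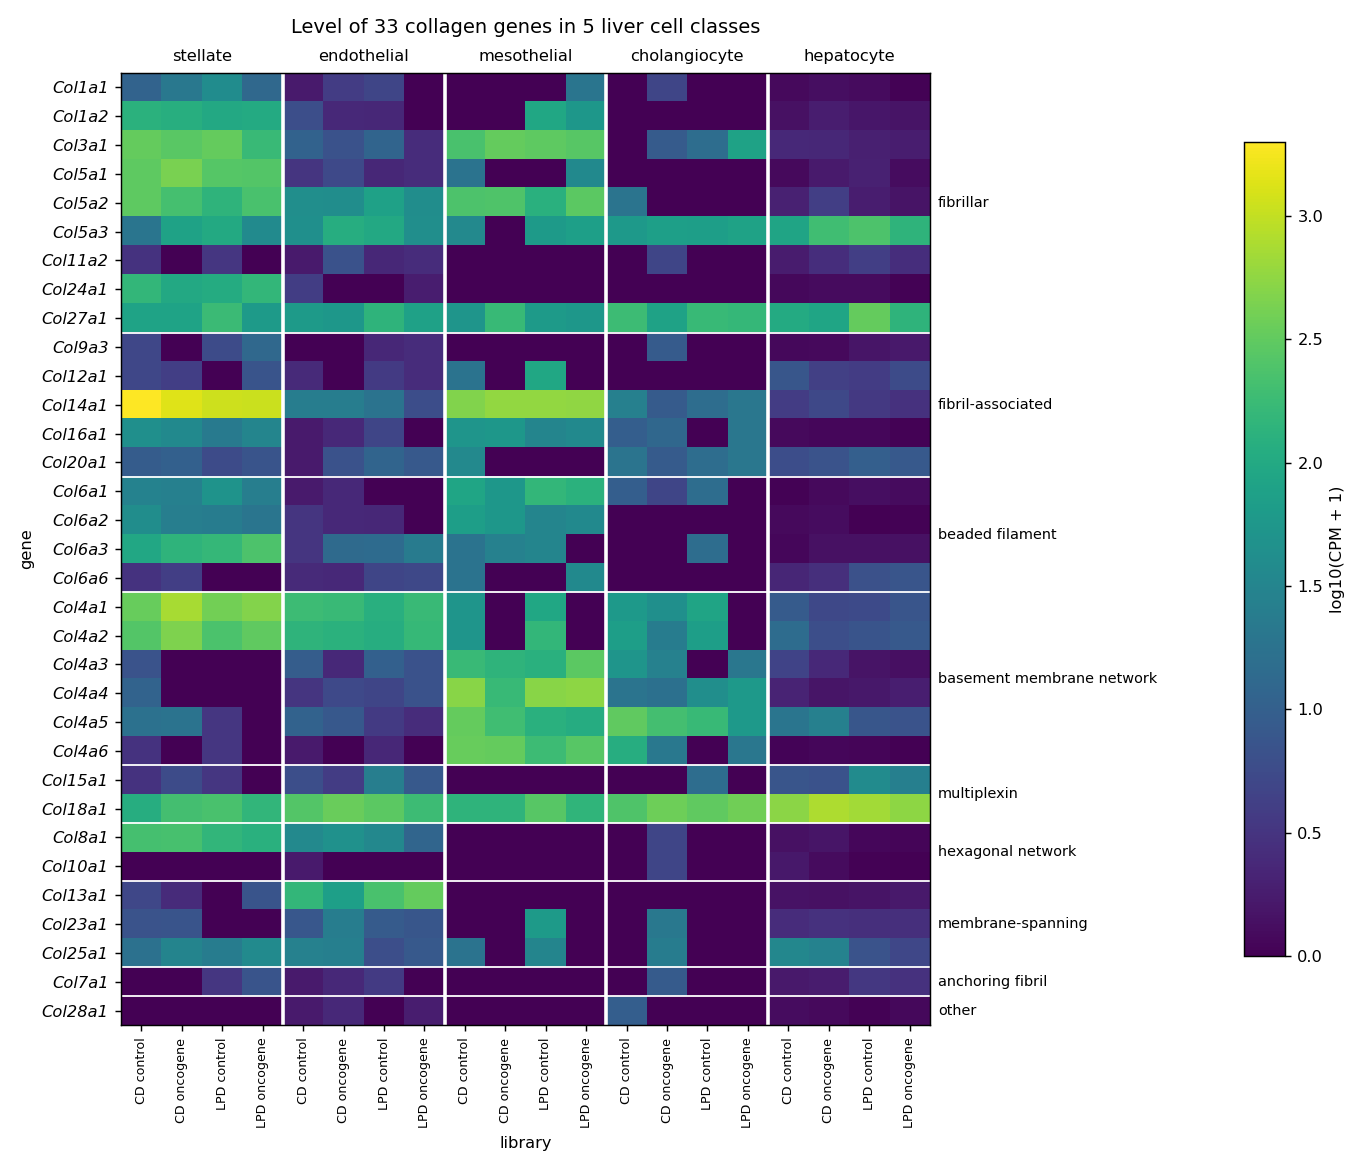
Level of each of the 33 collagen genes with at least 20 UMIs in each class and library, as log10(CPM + 1), with the libraries of a class side by side. Col14a1 in stellate nuclei, at 1082 to 1996 CPM, gave the highest CPM in the plot, which counts UMIs and is not per length, and 18 of the 33 genes were highest in the same class in all 4 libraries.

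Col14a1 (ENSMUSG00000022371, chr15:55307750-55520803 in GRCm38), a fibril-associated collagen that binds the surface of fibrils, gave the most collagen UMIs of stellate nuclei. It stood at 1996, 1359, 1119 and 1082 CPM there, with 95% Poisson intervals of 1873 to 2125, 1271 to 1452, 1021 to 1224 and 929 to 1254 CPM. These intervals, like all others given here, cover counting error only. A UMI of Col14a1 was seen in 88.1, 73.6, 66.8 and 60.3% of stellate nuclei, against 2.05, 2.37, 0 and 0% of lymphocyte nuclei, whose median depth was 732 to 1183 UMIs against 1070 to 1689. After each nucleus was thinned to 500 UMIs, the stellate shares of Col14a1 were 56.1, 39.3, 42.4 and 42.0%. The nearest class was mesothelial, at 466, 580.2, 579.8 and 563 CPM. Stellate nuclei lay 1.86 ± 0.23 (SE) higher on the log2 scale, and the libraries of the 2 classes did not overlap (edgeR adjusted p = 4.90e-14).

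The type I and III genes, which make the bulk of fibrous scar, differed in level and in the classes that held them. Col1a2 was called highest in stellate nuclei, at 128, 118, 95.8 and 104 CPM, against 0, 0, 91.5 and 54.5 CPM in mesothelial nuclei (log2 difference 2.27 ± 0.53, edgeR adjusted p = 0.000433). That call on Col1a2 was lost with DESeq2 and without the library labelled CD control. Col1a1 gave only 5, 13, 17 and 2 UMIs in stellate nuclei, or 10.1, 20.1, 39.7 and 12.2 CPM, and its difference from mesothelial nuclei of 2.22 ± 1.30 did not pass (edgeR adjusted p = 0.344). Col3a1 stood at 330.3, 283, 332 and 171 CPM in stellate and 224, 332, 305 and 272 CPM in mesothelial nuclei, with the 2 ranges overlapping. The mean Col3a1 CPM was higher in mesothelial nuclei, whereas the scaled edgeR estimate put stellate nuclei 0.54 ± 0.27 higher (adjusted p = 0.244). Col3a1 was at most 10.52 CPM in endothelial and 1.41 CPM in hepatocyte nuclei.

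Type V collagen starts fibrils and sets their width, and its 3 genes had 3 different patterns. Col5a1 was high in stellate nuclei, at 304, 435, 271 and 257 CPM, with 3 UMIs in all mesothelial and 0 in all cholangiocyte nuclei. The stellate level of Col5a1 was 4.76 ± 0.51 above the mesothelial level on the log2 scale (edgeR adjusted p = 8.72e-19). Col5a2 was shared, with 306, 212, 140.1 and 226 CPM in stellate and 242, 249, 122 and 291 CPM in mesothelial nuclei, which overlapped (edgeR adjusted p = 0.441). Col5a3 was called highest in hepatocyte nuclei and is given with that class.

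Among the other genes called in stellate nuclei, Col24a1, a fibrillar collagen known from bone, stood at 150.0, 96.0, 105 and 153 CPM. It gave 5 UMIs in all endothelial nuclei and 0 in mesothelial and cholangiocyte nuclei, which in mesothelial nuclei allows up to 51.8 to 91.5 CPM per library. Col24a1 differed from endothelial nuclei by 6.75 ± 0.43 on the log2 scale. Col8a1, a short-chain collagen of vessel walls, was at 209, 217, 149 and 122 CPM in stellate and 34.6, 45.7, 34.2 and 10.8 CPM in endothelial nuclei (difference 2.61 ± 0.24, largest edgeR adjusted p against any class = 2.65e-14). Col6a3, the long chain of beaded type VI filaments, was at 95.2, 141, 159 and 238 CPM in stellate and at most 22.3 CPM in endothelial nuclei (difference 3.77 ± 0.28, largest edgeR adjusted p = 3.95e-09). These tests pooled all endothelial nuclei, and both Col8a1 and Col6a3 were higher in the vascular ones, as given below.

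The other type VI chains did not follow Col6a3. Col6a1 was at 28.4, 26.3, 49.0 and 24.5 CPM in stellate and 86.3, 55.3, 153 and 127 CPM in mesothelial nuclei, higher in the latter in all 4 libraries, but on 19 mesothelial UMIs (log2 difference 1.16 ± 0.56, edgeR adjusted p = 0.209). Col6a1 was called highest in mesothelial nuclei with DESeq2 and with clusters of nuclei in place of the marker rule. Col6a2 was at 40.5, 24.8, 23.4 and 18.3 CPM in stellate and 69.0, 55.3, 30.5 and 36.3 CPM in mesothelial nuclei (difference 0.31 ± 0.71, adjusted p = 0.880). Col6a6 gave 3 UMIs in stellate and 3 in mesothelial nuclei.

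Col16a1, another fibril-associated collagen, was similarly placed at 42.6, 35.6, 21.02 and 30.6 CPM in stellate and 51.8, 55.3, 30.5 and 36.3 CPM in mesothelial nuclei. Its mean CPM was higher in mesothelial nuclei, whereas the edgeR estimate for Col16a1 was 0.08 ± 0.70 in favour of stellate nuclei (adjusted p = 1). The mesothelial values rested on 8 UMIs.

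Type IV collagen has 6 chains, and their genes lie in 3 head-to-head pairs that start close together and run apart. In coordinates of the mouse build GRCm38, Col4a1 and Col4a2 on chromosome 8 overlap by 22 bases at their starts. Col4a4 and Col4a3 on chromosome 1 lie 71 bases apart, and Col4a6 and Col4a5 on chromosome X lie 1308 bases apart. Since genes of a pair turned out to share a class or to part, the sequences from 250 bases before to 50 bases after each start are shown, taken from RefSeq (GRCm38.p6). The strand of each is that of its gene. The starts of Col4a1 (chr8:11312777-11313076, minus strand) and Col4a2 (chr8:11312555-11312854, plus strand) share 78 bases, which are in capitals and are reverse complements of each other.
Col4a1: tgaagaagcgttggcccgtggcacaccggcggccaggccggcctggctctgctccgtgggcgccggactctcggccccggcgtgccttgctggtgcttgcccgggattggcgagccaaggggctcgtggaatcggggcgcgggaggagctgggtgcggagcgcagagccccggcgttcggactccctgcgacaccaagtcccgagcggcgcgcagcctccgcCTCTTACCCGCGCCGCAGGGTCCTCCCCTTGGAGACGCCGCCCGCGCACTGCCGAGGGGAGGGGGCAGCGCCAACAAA
Col4a2: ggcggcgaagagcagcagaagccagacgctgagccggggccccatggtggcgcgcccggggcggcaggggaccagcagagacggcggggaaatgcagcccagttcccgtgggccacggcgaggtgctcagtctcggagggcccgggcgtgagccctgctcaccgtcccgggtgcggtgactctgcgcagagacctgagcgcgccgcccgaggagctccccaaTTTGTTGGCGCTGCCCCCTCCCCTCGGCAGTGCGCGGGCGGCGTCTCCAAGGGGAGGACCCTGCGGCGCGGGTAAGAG

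In the next 3 sequences, capitals mark matches on either strand to the TATA box (TATAAA), the CCAAT box (CCAAT) or the GC box (GGGCGG). They are those of Col4a4 (chr1:82586800-82587099, minus strand), Col4a5 (chrX:141475169-141475468, plus strand) and Col4a6 (chrX:141474027-141474326, minus strand).
Col4a4: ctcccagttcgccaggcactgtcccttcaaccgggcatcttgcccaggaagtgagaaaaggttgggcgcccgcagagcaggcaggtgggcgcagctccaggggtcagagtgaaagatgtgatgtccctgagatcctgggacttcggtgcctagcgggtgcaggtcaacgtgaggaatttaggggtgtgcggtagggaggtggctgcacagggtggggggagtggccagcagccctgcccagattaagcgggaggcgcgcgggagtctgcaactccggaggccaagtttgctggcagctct
Col4a5: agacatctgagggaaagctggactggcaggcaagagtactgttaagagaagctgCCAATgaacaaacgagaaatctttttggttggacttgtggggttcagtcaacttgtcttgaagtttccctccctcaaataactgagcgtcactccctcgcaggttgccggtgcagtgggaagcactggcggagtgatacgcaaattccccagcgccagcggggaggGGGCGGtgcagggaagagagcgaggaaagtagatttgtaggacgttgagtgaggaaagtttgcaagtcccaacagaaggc
Col4a6: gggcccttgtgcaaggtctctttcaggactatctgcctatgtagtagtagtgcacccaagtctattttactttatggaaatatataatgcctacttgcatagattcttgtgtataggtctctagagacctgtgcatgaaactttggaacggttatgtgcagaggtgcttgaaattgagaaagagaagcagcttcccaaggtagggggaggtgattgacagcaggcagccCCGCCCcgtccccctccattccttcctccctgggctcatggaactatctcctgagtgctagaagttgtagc

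None of these 5 sequences held TATAAA. Col4a2 held GGGCGG 3 times, Col4a1, Col4a5 and Col4a6 held it 1 time each and Col4a4 did not. CCAAT was present 1 time each in Col4a1, Col4a2 and Col4a5. RefSeq sequences were matched for 35 of the 44 genes, in 38 windows. TATAAA was in 13.2% of these windows and 13.6% of 32851 windows of all genes, CCAAT in 34.2 and 37.4%, and GGGCGG in 60.5 and 35.7%. A match to such letters is a description only, and the motifs were counted on both strands.

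**Figure D3:**
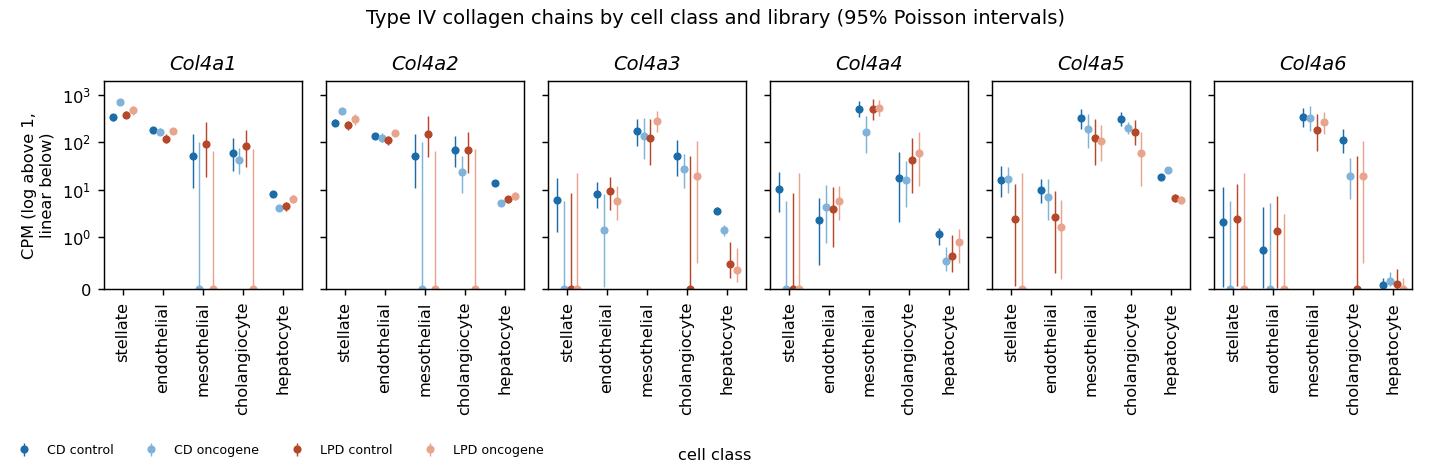
Level of the 6 type IV collagen genes in CPM in each class of nuclei, each point being 1 library; the axis is logarithmic above 1 CPM and linear below. Col4a1 and Col4a2 were highest in stellate nuclei, while Col4a3, Col4a4 and Col4a6 were highest in mesothelial nuclei, and Col4a5 was high in both mesothelial and cholangiocyte nuclei.

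Col4a1 and Col4a2, the chains of nearly all basement membranes, were highest in stellate nuclei. Col4a1 was at 338, 735, 390.1 and 483 CPM there and at 184, 169.8, 121 and 174 CPM in endothelial nuclei, with no overlap (log2 difference 1.66 ± 0.19, edgeR adjusted p = 3.17e-16). A UMI of Col4a1 was found in 36.0 to 56.5% of stellate nuclei and in at most 1.82% of lymphocyte nuclei. Col4a2 was at 263, 461, 231 and 312 CPM in stellate and 138, 126, 112 and 161 CPM in endothelial nuclei (difference 1.33 ± 0.20, adjusted p = 3.41e-10). With clusters in place of the marker rule Col4a2 was no longer called.

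The share of Col4a1 in the UMIs of the pair, which is not per length, was above 50% in both of these classes. Col4a1 made 56.2, 61.4, 62.8 and 60.8% of the UMIs of the pair in stellate nuclei and 57.1, 57.5, 52.0 and 51.9% in endothelial nuclei. In hepatocyte nuclei, where both were at most 13.6 CPM, Col4a1 made 37.0, 44.3, 41.9 and 46.1%, below the stellate value in every library. Reads in the overlap of Col4a1 and Col4a2 cannot be split between them where strand is not used, and the use of strand is not given in the sources used here.

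Col4a3, Col4a4 and Col4a6 belong to specialised basement membranes such as those of the kidney filter and some epithelia. All 3 were called highest in mesothelial nuclei, the cells that cover the liver surface. Col4a4 was at 518, 166, 519 and 545 CPM there, with 95% intervals of 349 to 739, 60.8 to 361, 302 to 831 and 368 to 778 CPM. Cholangiocyte nuclei came next for Col4a4, at 17.4, 15.8, 41.9 and 58.3 CPM, with a log2 difference of 3.69 ± 0.48 (edgeR adjusted p = 1.30e-12). A UMI of Col4a4 was seen in 52.9, 18.2, 38.5 and 41.9% of mesothelial nuclei and in at most 0.264% of lymphocyte nuclei.

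Col4a6 was at 345, 332, 183 and 272 CPM in mesothelial and 113, 19.704, 0 and 19.4 CPM in cholangiocyte nuclei (difference 2.85 ± 0.56, edgeR adjusted p = 2.15e-05). Col4a3 was at 173, 138, 122 and 291 CPM in mesothelial and 52.2, 27.6, 0 and 19.4 CPM in cholangiocyte nuclei (difference 2.65 ± 0.57, adjusted p = 0.000139). For each of these genes the 4 mesothelial values lay above the 4 cholangiocyte values. The call on Col4a3 rested on 35 mesothelial UMIs and was lost without the library labelled LPD oncogene.

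The partner of Col4a6 behaved differently. Col4a5 was at 328, 193, 122 and 109 CPM in mesothelial and 313, 205, 168 and 58.3 CPM in cholangiocyte nuclei, which overlapped throughout (log2 difference -0.08 ± 0.35 for mesothelial minus cholangiocyte, edgeR adjusted p = 1). In both classes Col4a5 was above the 17.03 CPM reached in stellate and the 26.02 CPM reached in hepatocyte nuclei. Col4a5 made 48.7, 36.8, 40 and 28.6% of the UMIs of the Col4a5 and Col4a6 pair in mesothelial nuclei. In hepatocyte nuclei it made 98.4 to 100% of them. Hepatocyte Col4a5, at 18.3, 26.02, 6.72 and 6.03 CPM, stood beside 8.52, 16.2, 0 and 1.96 CPM in lymphocyte nuclei.

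Col14a1, Col3a1 and Col5a2, given above, were with Col4a4, Col4a5 and Col4a6 the 6 collagen genes with the highest mean CPM in mesothelial nuclei. Of the 12 collagen genes with their highest mean CPM in this class, 6 were highest there in all 4 libraries: Col4a3, Col4a4, Col4a6, Col6a1, Col6a2 and Col16a1. Mesothelial sums held 32772 to 57959 UMIs per library, so that a gene below 51.8 to 91.5 CPM could go unseen.

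In endothelial nuclei Col13a1 (ENSMUSG00000058806, chr10:61838236-61979108), a membrane-spanning collagen known from the neuromuscular junction, was the only collagen gene called. It stood at 152, 71.3, 228 and 334 CPM, with intervals of 132 to 174, 52.9 to 94.1, 195 to 264 and 302 to 368 CPM. Stellate nuclei gave 4 Col13a1 UMIs in all, and mesothelial and cholangiocyte nuclei 0. The log2 difference from stellate nuclei was 6.00 ± 0.42, and the largest edgeR adjusted p against any class was 9.05e-16. A UMI of Col13a1 was found in 22.1, 7.72, 21.4 and 28.2% of endothelial nuclei, and in 0.683, 0.264, 0 and 0.190% of lymphocyte nuclei.

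Endothelial nuclei were split further by markers into 1712 sinusoidal and 136 vascular nuclei, the latter only 10 to 56 per library. Col13a1 was at 179.8, 91.9, 269 and 369 CPM in sinusoidal and at 0, 0, 0 and 29.4 CPM in vascular nuclei. The vascular values of 0 for Col13a1 allow up to 105, 227 and 51.4 CPM, so that a difference was not detectable at this depth in the library labelled CD oncogene. Col6a3 and Col8a1 were the reverse. Col8a1 was at 210.2, 151, 274 and 73.5 CPM in vascular and 2.30, 0, 0 and 0 CPM in sinusoidal nuclei, and Col6a3 at 35.03, 75.6, 154 and 353 CPM against the same 2.30, 0, 0 and 0 CPM. Col5a2 was also higher in vascular nuclei in all 4 libraries, at 420.4, 151, 189 and 191 CPM against 19.6, 14.7, 26.7 and 33.3 CPM. Mean vascular levels were near the stellate means, at 154 against 158 CPM for Col6a3 and 238 against 221 CPM for Col5a2. The vascular mean of Col8a1, 177 CPM, lay within its stellate values given above. The vascular values of these 3 genes rest on 1 to 24 UMIs per library, and the split was not tested.

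The rest of the endothelial collagen was shared with other classes. Col18a1 was at 263, 348, 291 and 185 CPM, Col27a1 at 62.5, 55.6, 141 and 76.1 CPM and Col5a3 at 42.9, 111, 96.0 and 41.4 CPM. Each of these 3 genes was lower in endothelial than in hepatocyte nuclei in all 4 libraries. In lymphocyte nuclei they were lower still, at 139 to 246, 27.3 to 83.6 and 23.9 to 83.6 CPM for Col18a1, Col27a1 and Col5a3. For these genes in turn, macrophage nuclei held 30.01 to 43.6%, 34.6 to 66.1% and 31.8 to 56.1% of the hepatocyte level. Endothelial nuclei held 33.7 to 49.98%, 43.2 to 64.8% and 30.02 to 58.1%. Col18a1 was lower in macrophage than in endothelial nuclei in all 4 libraries. Col27a1 was higher in macrophage nuclei in CD control and LPD control, and Col5a3 in LPD oncogene. These differences were not tested.

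No collagen gene was called highest in cholangiocyte nuclei, the cells of the bile ducts, by edgeR or by DESeq2. At an unadjusted edgeR p below 0.05 in each contrast the count was also 0. The genes with the most UMIs there were Col18a1, at 244, 370.4, 307 and 389 CPM, and Col4a5, given above. Col27a1 was at 183, 78.8, 168 and 156 CPM and Col5a3 at 60.9, 70.9, 69.9 and 77.8 CPM. Col4a1 was at 60.9, 43.3, 83.9 and 0 CPM, where 0 UMIs in the library labelled LPD oncogene allow up to 58.3 CPM. Depth was low in this class, with 51434 to 253749 UMIs per library.

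Hepatocyte nuclei had the highest levels of both multiplexins. Col18a1 (ENSMUSG00000001435, chr10:77052178-77166548), the precursor of endostatin and a known product of hepatocytes, was at 525, 788, 701 and 548 CPM. A UMI of Col18a1 was seen in 83.6, 85.8, 76.6 and 69.6% of hepatocyte nuclei at a median depth of 2349 to 4798 UMIs, and in 14.1, 19.8, 15.5 and 9.51% of lymphocyte nuclei at 732 to 1183 UMIs. Thinned to 500 UMIs, the shares were 23.5, 32.0, 29.7 and 23.4% in hepatocyte and 6.38, 7.39, 8.15 and 4.94% in lymphocyte nuclei. Hepatocyte nuclei lay 1.37 ± 0.19 above endothelial nuclei for Col18a1 on the log2 scale (largest edgeR adjusted p against any class = 3.10e-09).

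**Figure D4:**
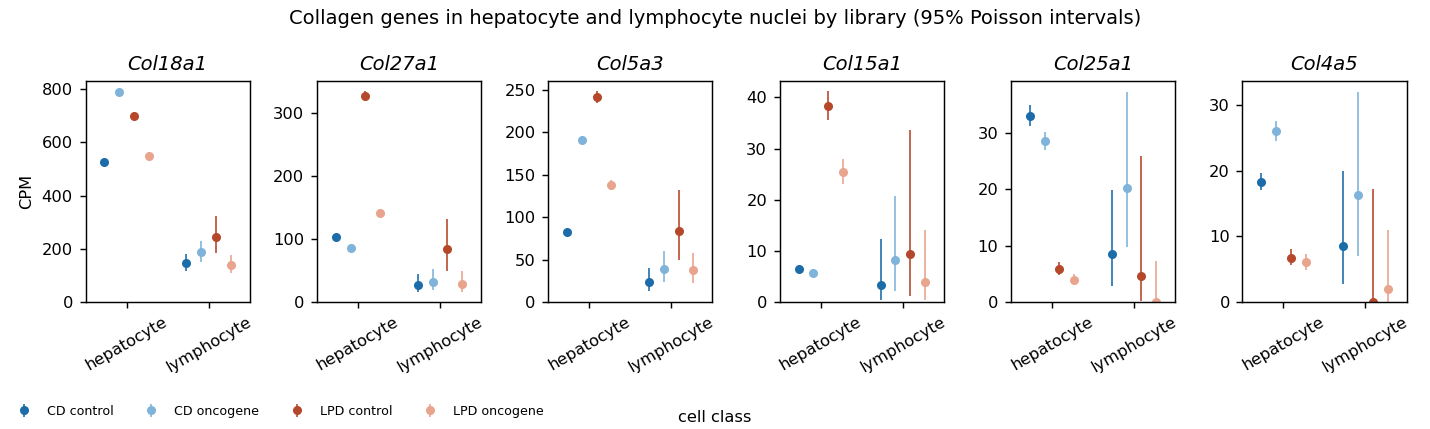
Levels of Col18a1, Col27a1, Col5a3, Col15a1, Col25a1 and Col4a5 in hepatocyte and lymphocyte nuclei, in CPM, with 1 point per library and lines for 95% Poisson intervals. Col18a1 was 525 to 788 CPM in hepatocyte and 139 to 246 CPM in lymphocyte nuclei, and Col15a1 was higher in the LPD than in the CD libraries.

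Col5a3, the least studied type V chain, was at 82.7, 191, 242 and 138 CPM in hepatocyte nuclei. Endothelial nuclei came next, 1.31 ± 0.19 lower on the log2 scale (largest edgeR adjusted p for Col5a3 against any class = 5.52e-07). Relative to hepatocyte nuclei, lymphocyte nuclei held 23.7 to 35.1% of the Col18a1 level and 20.2 to 34.6% of the Col5a3 level. Stellate nuclei held 21.2 to 32.0% and 22.05 to 41.6%. These percentages of Col18a1 and Col5a3 were below those of the median hepatocyte marker in the same classes, 41.3 to 79.4% and 49.4 to 58.5%.

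Col15a1, the second multiplexin, was at 6.43, 5.74, 38.3 and 25.4 CPM in hepatocyte and 5.27, 2.85, 24.99 and 7.45 CPM in endothelial nuclei. The difference of 1.03 ± 0.32 was called (largest edgeR adjusted p against any class = 0.0185), but the call on Col15a1 was lost with DESeq2, with its size factors, with clusters, with 1 more marker required and when any library was left out. Col27a1, a fibrillar collagen of cartilage, was at 102, 85.8, 326 and 141 CPM in hepatocyte nuclei and within 0.46 ± 0.25 of the cholangiocyte level (adjusted p = 0.220). It was called highest in hepatocyte nuclei without the library labelled CD control. Stellate nuclei held 79.1, 95.6, 53.7 and 43.4% of the hepatocyte level of Col27a1, above the median hepatocyte marker (52.2, 49.4, 50.6 and 58.5%) in 3 of 4 libraries.

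Col25a1, a membrane-spanning collagen best known from brain, had its highest mean in stellate nuclei, but only 43 UMIs were counted there. In hepatocyte nuclei it gave 2762 UMIs, at 33.1, 28.5, 5.93 and 3.98 CPM. The difference between stellate and hepatocyte nuclei for Col25a1 was 0.48 ± 0.32 (adjusted p = 0.257). The stellate level of Col25a1 was 49.0, 103, 394 and 922% of the hepatocyte level in the 4 libraries.

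The other genes with at least 20 UMIs were low in all 5 classes, and their highest class rested on few UMIs outside hepatocyte nuclei. Col20a1 gave 768 hepatocyte UMIs, at 5.09 to 9.05 CPM, close to the 3.91 to 6.82 CPM of lymphocyte nuclei. Col12a1 and Col6a6 had their highest means in mesothelial nuclei on 4 and 3 UMIs, and Col23a1 on 2 UMIs. Col9a3 and Col7a1 were highest in stellate nuclei on 6 and 2 UMIs. Col11a2 was highest by mean in endothelial nuclei on 8 UMIs, and Col10a1 and Col28a1 in cholangiocyte nuclei on 1 UMI each. None of the differences between the top class of these genes and the next passed the test. The 11 genes below 20 UMIs were Col2a1, Col6a4, Col6a5, Col8a2, Col9a1, Col9a2, Col11a1, Col17a1, Col19a1, Col22a1 and Col26a1.

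Gene models that overlap on the genome limit some of these values. Col10a1 lies within Nt5dc1, Col9a3 overlaps Tcfl5, Col18a1 overlaps Slc19a1, and Col15a1, Col14a1, Col24a1, Col12a1 and Col4a3 overlap other transcripts. Without strand, reads from such pairs cannot be told apart.

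Genes that work with collagens were placed in the same way, from lists chosen with earlier results known. Of 16 tested basement membrane partners, 6 were called highest in stellate, 2 in endothelial and 2 in cholangiocyte nuclei. The laminin chain Lamc1 was at 415 to 551 CPM in stellate nuclei, and the chains Lama1 (249 to 345 CPM) and Lama2 (88.8 to 399 CPM) were called in stellate nuclei too, as was the collagen-binding Sparc (164 to 355 CPM). The endothelial calls were Hspg2, which encodes perlecan, and Lama4, and the cholangiocyte calls were Agrn and Lamc3. Mesothelial and hepatocyte nuclei had 0 calls on this list. Of all genes tested, 3.02% were called in stellate, 2.84% in endothelial, 1.54% in mesothelial, 1.04% in cholangiocyte and 7.03% in hepatocyte nuclei.

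Of 16 tested enzymes and chaperones that modify collagen, 2 were called in stellate (3.02% of all genes), 1 in endothelial (2.84%) and 1 in mesothelial nuclei (1.54%). The prolyl 3-hydroxylase P3h2 was called in stellate nuclei (79.5 to 199 CPM), and the lysyl hydroxylase Plod2 in mesothelial nuclei, at 82.9 to 363 CPM against 54.7 to 77.4 CPM in stellate nuclei. The prolyl 4-hydroxylase subunits P4ha1, at 93.2 to 182 CPM in stellate and 82.9 to 427 CPM in mesothelial nuclei, and P4hb, at 92.9 to 141 and 27.6 to 275 CPM, were not called in any class. Of 11 tested genes for procollagen processing and crosslinking, 3 were called in stellate nuclei (3.02% of all genes) and 1 in hepatocyte nuclei (7.03%). The N-proteinases Adamts2 (243 to 372 CPM) and Adamts14 (79.4 to 135 CPM) were called in stellate nuclei, and the C-proteinase Bmp1 in hepatocyte nuclei, at 138 to 265 CPM. Adamts3, at 32.5 to 79.5 CPM in stellate nuclei, was not called.

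Of 9 tested collagen receptors, 3 were called in stellate nuclei, where 3.02% of all genes were, and 0 elsewhere. These were the integrin subunits Itga1 (977 to 1168 CPM) and Itgb1 (270 to 341 CPM) and the receptor kinase Ddr2 (149 to 259 CPM), whereas Mrc2, an uptake receptor, was at 23.4 to 78.96 CPM and not called. Of 7 tested matrix proteases and inhibitors, Mmp2 was called in stellate (3.02% of all genes), Timp3 in endothelial (2.84%) and Timp2 in mesothelial nuclei (1.54%), and Mmp14, at 21.7 to 55.0 CPM in stellate nuclei, was not. Of 10 tested stellate activation genes, 4 were called in stellate nuclei (3.02% of all genes). Among these were Pdgfra (133 to 202 CPM), Postn (46.4 to 153 CPM) and Tagln (4.05 to 71.2 CPM). Ccn2, at 6.08 to 60.7 CPM in stellate nuclei, was not called, and Vim was called in mesothelial (1.54% of all genes), Tgfb1 in endothelial (2.84%) and Spp1 in cholangiocyte nuclei (1.04%).

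Differences between libraries have no test, because each group had 1 library. The CPM of a gene was compared between each LPD and each CD library, as a log2 ratio with 5 CPM added. A gene was counted when it was at least 2-fold apart in the same direction in all 4 pairs. A gene below 5 CPM in every library could not reach 2-fold by this rule. In stellate nuclei 0 of 19 collagen genes with at least 20 UMIs were higher in LPD and 1 was lower, where 2.16 and 0.886% of all genes were. In endothelial nuclei 0 of 17 were higher and 1 lower (1.33 and 1.48% of all genes). In hepatocyte nuclei 1 of 32 was higher and 1 lower (1.15 and 0.826%).

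The hepatocyte gene that was higher on LPD was Col15a1, at 38.3 and 25.4 CPM against 6.43 and 5.74 CPM, with log2 ratios of 1.41 to 2.01. The gene that was lower was Col25a1, at 5.93 and 3.98 CPM against 33.1 and 28.5 CPM, with log2 ratios of -2.08 to -1.62. For both genes the LPD and CD libraries lay far apart compared with the pair on the same diet. Col25a1 was lower in endothelial nuclei too, at 5.26 and 7.45 CPM against 27.1 and 25.7 CPM (-1.64 to -1.30), on 67 UMIs in all. From CD control to LPD oncogene its endothelial level was 81.9, 90.2, 88.8 and 187% of the hepatocyte level. The part of hepatocyte RNA in the endothelial values was not tested. In lymphocyte nuclei Col25a1 was at 4.65 and 0 against 8.52 and 20.3 CPM. In stellate nuclei Col4a5 was lower on LPD, but on 8, 11, 1 and 0 UMIs. In hepatocyte nuclei Col4a5 gave 2113 UMIs and log2 ratios of -1.49 to -0.99, and so narrowly missed the rule. It was counted as lower there with a pseudocount of 1 CPM, with TMM factors and with 1 more marker required.

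Col1a1, Col1a2 and Col3a1 did not meet this rule in stellate nuclei. For the 19 collagen genes in stellate nuclei, LPD over CD gave a median log2 ratio of -0.40 to -0.16 over the 4 pairs, where that of all 8574 genes was 0.11 to 0.22. In endothelial nuclei the medians were -0.16 to 0.13 for 17 collagen genes and 0.08 to 0.30 for 11166 genes. In hepatocyte nuclei they were -0.03 to 0.01 for 32 collagen genes and 0.02 to 0.08 for 16715 genes. Most of these 32 genes had a mean below 5 CPM there, and the 5 CPM added draws such ratios towards 0. In stellate nuclei the median of the collagen genes was below that of all genes in each of the 4 pairs, while of the 19 genes 11 to 16 lay below it. This was not tested, and depth and mitochondrial share differed along with diet.

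Between the oncogene and control labels, 0 collagen genes were at least 2-fold higher in both diets in stellate, endothelial or hepatocyte nuclei, where 0.315, 0.0806 and 0.0957% of all genes were. None was 2-fold lower in both diets either (0.455, 0.242 and 0.0658% of all genes). The stellate medians of the collagen genes were 0.05 on CD and -0.08 on LPD. By the labels, Col5a3 differed in opposite directions by at least 2-fold in the 2 diets in stellate and endothelial nuclei. The log2 ratios were 1.85 on CD and -1.34 on LPD in stellate nuclei, and 1.28 and -1.12 in endothelial nuclei. Hepatocyte nuclei had ratios of the same signs, 1.16 and -0.79, and the part of hepatocyte RNA in the other classes was not tested. Since the transgene UMIs of the CD pair go against its labels, the direction of the CD ratio is that of the labels only. With the CD pair read the other way round, an alternative chosen after seeing the data, Col5a3 had log2 ratios of -1.85 on CD and -1.34 on LPD in stellate and -1.28 and -1.12 in endothelial nuclei. The count of collagen genes at least 2-fold lower in both diets was then 1 of 19 in stellate (1.05% of all genes), 1 of 17 in endothelial (0.251%) and 0 of 32 in hepatocyte nuclei (0.0838%), and that of genes higher in both was 0 (0.362, 0.107 and 0.0897%).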

How the data were processed

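Livers were profiled by single-nucleus RNA-seq with droplet capture and poly-T priming, 1 library per group. The authors deposited UMI counts per gene and nucleus, made with Cell Ranger 9.0.1 per the file headers, from reads aligned to mm10 with human c-MET and CTNNB1 added; Seurat 5 was named in the submitters' processing notes. Counting of introns and use of strand are not given in the sources used here. The gene list, classes, markers and pathway lists were chosen with earlier results of these data known.

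Nuclei with 200 to 7000 genes and at most 21% mitochondrial UMIs were kept. A nucleus joined a class when at least 2 of its markers were present at 20 or more UMIs per 10000, with more markers than any other class and at least 2 times the density of the next. Hepatocyte nuclei needed 5 of 8 markers, at most 1 marker of another class and under 10 such UMIs per 10000. Scrublet's automatic threshold marked at most 0.00962% of the nuclei of a library and thus did not work, so doublets were not removed in the main analysis.

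Counts were summed per library and class and scaled to CPM. Sums were fitted with edgeR 4.0.16 (R 4.3.3) by its quasi-likelihood test, with class and library as terms, TMM factors and genes of at least 20 UMIs. Standard errors were taken from the log2 difference and its F statistic. The script was tested on simulated counts. Shares carry exact Clopper-Pearson and CPM exact Poisson 95% intervals, which cover counting error only, and 0 UMIs allow up to 3. CPM are not per length, since UMIs come from poly-T priming, so differences were tested between classes only, and shares or orders across genes are of UMIs. The named genes with values per library were, for each class, the 6 collagen genes with the highest mean CPM among those with 20 or more UMIs there, besides the genes called, and, for each pathway list, the 4 genes highest in stellate nuclei; other genes given with values were chosen after their values were seen. DESeq2 1.42.0 was an alternative.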

Additional observations from a re-analysis of the deposited data

Results flagged for a closer look

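In hepatocyte, endothelial and stellate nuclei several collagen genes had log2 ratios of the oncogene over the control label that pointed one way on CD and the other way on LPD, with counting intervals that excluded 0 in both diets. Each ratio sets 1 library against another, so the difference between diets was not tested, and the CD direction follows labels that the transgene UMIs go against. The genes below were picked for ratios of opposite sign. Reading the CD pair the other way round therefore gives both ratios the same sign by construction. The ratios here have no pseudocount, and the share of all genes that met the same rule is not given. The intervals cover counting error only.

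Col5a3 did so in 3 classes, with ratios on CD and LPD of 2.11 and -1.45 in stellate, 1.38 and -1.21 in endothelial and 1.21 and -0.81 in hepatocyte nuclei. Col18a1 had 0.41 and -0.66 in endothelial and 0.59 and -0.35 in hepatocyte nuclei. For both genes the library labelled CD oncogene was higher than its partner, and the library labelled LPD oncogene lower.

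In stellate nuclei Col5a2 had ratios of -0.53 on CD and 0.69 on LPD. In endothelial nuclei Col13a1 had -1.09 and 0.55. The summed endothelial markers of these nuclei were 8195, 5771, 9663 and 12208 CPM, which ranks the libraries as Col13a1 does. The part of this in the Col13a1 ratios was not tested. In hepatocyte nuclei Col4a1 had -0.93 and 0.49, Col12a1 -1.05 and 0.74, Col5a1 1.71 and -1.74 and Col11a2 1.08 and -0.89. Hepatocyte Col5a1 rested on 5 to 33 UMIs per library and was at most 1.01 CPM. With 5 CPM added, the hepatocyte ratios on CD and LPD were -0.50 and 0.25 for Col4a1 and -0.50 and 0.31 for Col12a1. Those of Col5a1 were then 0.14 and -0.18, and those of Col11a2 0.21 and -0.28.

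Macrophage nuclei were not among the 5 classes compared. Col11a2, a fibrillar collagen of cartilage, was at 9.67, 40.8, 6.98 and 12.9 CPM there, the lowest of these being 6.98 CPM, on 3, 11, 2 and 11 UMIs. In lymphocyte nuclei Col11a2 was at 1.70, 0, 9.29 and 0 CPM, so that macrophage nuclei were higher in 3 of 4 libraries.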

How the results depend on the processing

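Of the 15 calls of a gene as highest in 1 class, 11 were made under each alternative tried. Besides the calls named above as lost, DESeq2 added Col6a1, clusters in place of the marker rule added Col12a1, Col1a1 and Col6a1, and leaving out the library labelled CD control added Col27a1. With clusters, 5 genes were highest in mesothelial nuclei in place of 3, and LPD oncogene had no cholangiocyte cluster. When each library was left out in turn, the counts were 7 to 8 in stellate, 1 to 1 in endothelial, 2 to 3 in mesothelial, 0 to 0 in cholangiocyte and 2 to 3 in hepatocyte nuclei. The count of genes 2-fold apart between LPD and CD in stellate nuclei became 0 with at least 50 UMIs per gene, since Col4a5 has 20 UMIs, and 0 with 1 more marker required. With a pseudocount of 1 CPM it became 2 in endothelial nuclei, where Col4a5 was added, and 4 in hepatocyte nuclei, where Col6a6 and Col4a5 were added. With TMM factors and with 1 more marker required it became 3 in hepatocyte nuclei, where Col4a5 was added. The stricter filter of nuclei, TMM factors and removal of the top 8% of Scrublet scores moved no count by over 1.5 times. Thinning to 500 UMIs lowered the shares, and the thinned share was highest in the same class as the call in all 4 libraries except for Col4a3 (2 libraries), Col5a3 (3) and Col6a3 (3). With the CD pair read the other way round, chosen after seeing the data, the count of collagen genes 2-fold apart between oncogene and control labels rose from 0 to 1 in stellate and to 1 in endothelial nuclei (Col5a3 in both). Comparisons between classes had library as a block throughout. For comparisons between groups, no paired analysis was possible because each group had 1 library. Depth limits mesothelial and cholangiocyte nuclei most.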
